A study of Mus musculus with 2 samples.

Results

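The collagen chain genes are the genes of the array whose symbol has the form Col, a number, a, a number, with Col17a1 left out. They made up 43 of the 29875 genes named on the array, read by 68 of its 39429 probes. Of these, 38 genes with 56 probes were well above background and were tested, and Col4a3, Col10a1, Col13a1, Col19a1 and Col28a1 were not. The members follow from their symbols, with no threshold on a measured value. Collagen genes as the subject, and this rule, were chosen with earlier results of these data known.

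Total RNA was measured in dissected ureters of NMRI mouse embryos at E14.5, on 2 two-colour arrays that each carried 1 Gata6cKO and 1 control RNA. Gata6cKO embryos were Tbx18(cre/+);Gata6(fl/fl): both copies of Gata6, a zinc finger transcription factor, could be deleted by a cre recombinase placed in the locus of Tbx18, a gene of the mesenchyme that surrounds the ureteric epithelium. Control embryos were Gata6(fl/?), which leaves the state of the second copy unstated, and their label names no cre. Since both Gata6cKO labels and neither control label name the cre allele, the loss of Gata6 and the presence of cre in the Tbx18 locus cannot be told apart. The replicate 1 array held a male pair with Gata6cKO in Cy5, and the replicate 2 array a female pair with the dyes exchanged. Sex, dye orientation and replicate cannot be told apart either. Nothing in the labels tells 1 embryo per RNA from a pool of embryos, so a p-value here speaks for these samples only. Each p-value and SE rests mostly on a spread shared by all tested genes, with 11.9 prior degrees of freedom. The 2 arrays of a gene add 1 residual degree of freedom.

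Median spot signals lay between 224 and 442 in the 4 channels, and 67.2% to 68.5% of the spots were well above background. All 15 urothelial and all 10 ureter mesenchyme and smooth muscle markers on the lists were measured. All 7 endothelial, 7 erythroid and 6 macrophage markers were measured as well, so this does not tell the ureter from other tissue. Levels are given below as normalised intensity, in arbitrary units that hold for 1 probe and are not compared between probes. Ratios are log2 values of Gata6cKO over control, tested with limma over 19801 genes at an adjusted p under 0.05. Statements that both samples of a group lay above or below the others describe 4 values. They are no test, and the share of all genes that separate so is not given.

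Collagens are trimers of chains wound into a triple helix, and most lie outside the cell. Fibrillar collagens form the load-bearing fibrils of connective tissue, basement membrane collagens form the sheet under epithelia and around muscle and vessels, and FACIT collagens sit on the surface of fibrils. Short-chain collagens form hexagonal lattices, as in the layer below the corneal endothelium, and collagen VI chains form beaded filaments near cells. In the ureter, collagen lies under the urothelium, around the smooth muscle bundles and in the outer adventitia.

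The array read most of these genes through a single 60-base probe, so the letters below show what was measured. The first pair belongs to the gene with the highest ratio among the collagens, Col8a1 (chr16:57624471-57624530, minus strand), and to the chain it can assemble with, Col8a2 (chr4:125991441-125991500, plus strand). The next are Col6a5 (chr9:105765145-105766504, minus strand), whose 60 bases are split over a longer stretch of genome, and its neighbour Col6a4 (chr9:105893016-105893075, minus strand). The last 2 are Col25a1 probes that gave different ratios, at chr3:129885684-129885743 and chr3:130270497-130270556, both on the plus strand. Positions are on mm9, letters run 5′ to 3′ as deposited, and none of these is capitalised.
Col8a1: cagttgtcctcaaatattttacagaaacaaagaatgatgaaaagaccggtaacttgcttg
Col8a2: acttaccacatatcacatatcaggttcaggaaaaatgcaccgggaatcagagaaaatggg
Col6a5: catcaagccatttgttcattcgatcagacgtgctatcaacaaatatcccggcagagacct
Col6a4: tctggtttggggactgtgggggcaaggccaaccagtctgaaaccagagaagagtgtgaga
Col25a1, first probe: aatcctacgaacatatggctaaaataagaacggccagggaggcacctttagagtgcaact
Col25a1, second probe: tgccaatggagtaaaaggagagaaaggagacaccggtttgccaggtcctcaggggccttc
No collagen probe shared a run of more than 19 bases with a probe of another gene on the array.

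Of the 38 tested collagen genes, 3 rose in Gata6cKO ureters, 0 fell and 35 did not pass limma. These were 7.89% and 0% of the collagens, against a background of 2.20% higher and 2.35% lower over all genes. At an unadjusted p under 0.05, limma counted 4 of the 38 collagens higher (Col8a1, Col6a5, Col26a1 and Col6a4). It counted 5 of the 38 lower (Col1a1, Col1a2, Col5a3, Col24a1 and Col4a6). Over all 19801 genes, 1042 (5.26%) were higher and 1208 (6.10%) lower at that threshold. In each of 10 alternative settings, 0 collagens were called lower at an adjusted p under 0.05. The median ratio of the collagens was −0.05, with −0.06 in the male pair and 0.02 in the female pair, against a median of −0.00188 over all genes. Both arrays lay above 0 for 12 collagens and below 0 for 11, and the arrays had opposite signs for 15. These were 31.6%, 28.9% and 39.5% of the collagens, against 23.4%, 25.5% and 51.2% of all genes.

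**Figure D1:**
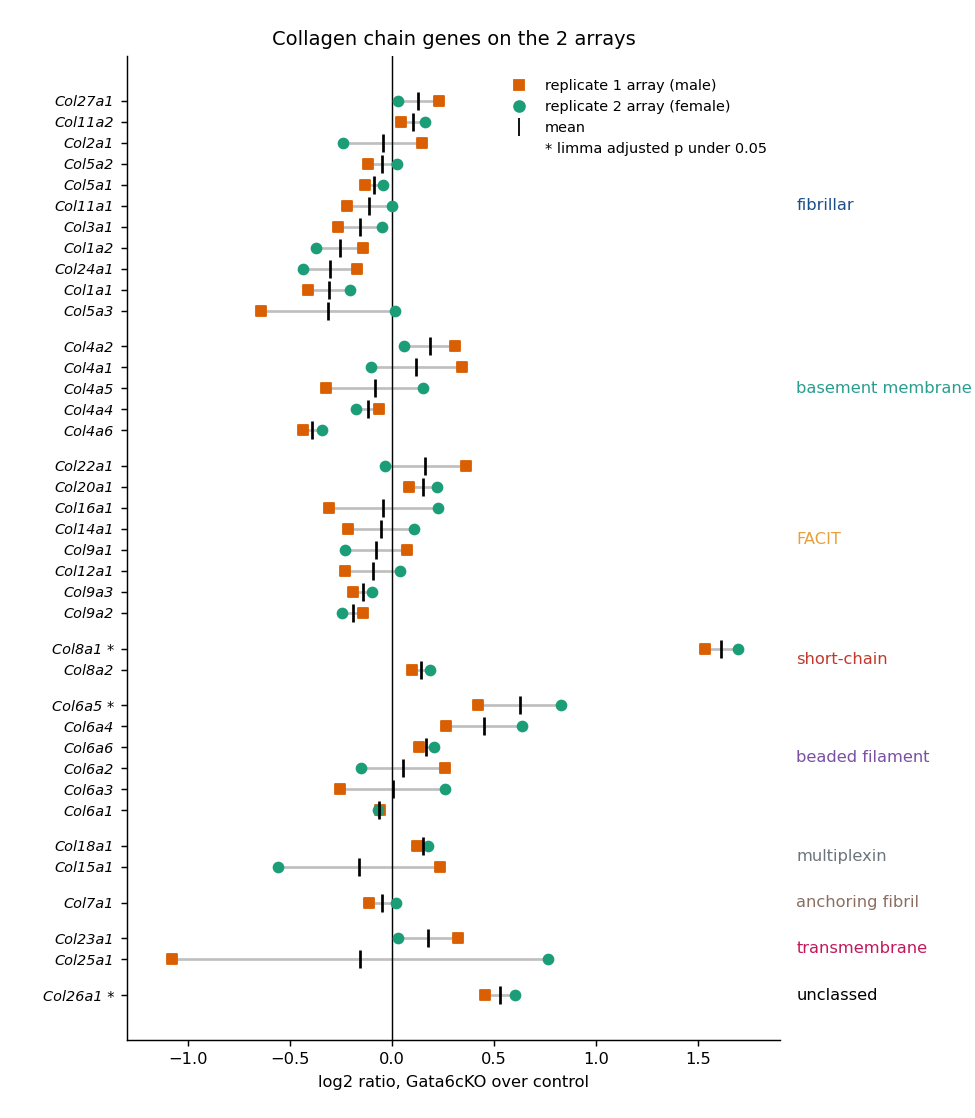
Log2 ratio of Gata6cKO over control (x axis) for the 38 tested collagen genes, grouped by class, with squares for the replicate 1 (male) array, circles for the replicate 2 (female) array and a bar for their mean. Col8a1 stands at 1.53 and 1.69, Col6a5 at 0.42 and 0.83 and Col26a1 at 0.46 and 0.60, while the points of Col25a1 lie at −1.08 and 0.76.

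Among the short-chain collagens, Col8a1 rose in Gata6cKO ureters and had the highest ratio of any collagen. Col8a1 encodes the alpha 1 chain of collagen VIII, a chain known from vessel walls and from the membrane below the corneal endothelium. Its normalised intensity was 660 (male) and 540 (female) in Gata6cKO RNA, against 228 and 167 in control RNA. Both Gata6cKO samples were above both control samples, and the ratio was of like size in the pairs. The mean log2 ratio was 1.61 ± 0.11 (moderated SE, n = 2 arrays; 95% interval 1.37 to 1.86; limma adjusted p = 4.06e-06), a 3.06-fold higher level. Col8a1 was the only collagen that was at least 2-fold changed on both arrays, as were 37 genes (0.187%) higher and 42 (0.212%) lower over the whole array. It passed in all 10 alternative settings, with log2 ratios from 1.61 to 2.12.

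Col8a2 encodes the other chain of collagen VIII. Its probe read 11926 and 13461 in Gata6cKO RNA, against 11163 and 11829 in control RNA. The Gata6cKO samples were the 2 higher ones, by little: the log2 ratio was 0.14 ± 0.11 (n = 2 arrays; 95% interval −0.10 to 0.38), which did not pass (limma adjusted p = 0.987). A further Col8a2 probe gave 0.15 in the male pair and 0.23 in the female pair. The log2 ratio of Col8a1 exceeded that of Col8a2 by 1.44 in the male pair and by 1.51 in the female pair. Col10a1, the short-chain collagen of hypertrophic cartilage, was not well above background in any channel, at 73.7 and 67.1 in Gata6cKO RNA and 69.4 and 68.8 in control RNA.

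The window around the start of Col8a1 is given as the sequence next to the gene with the largest difference (chr16:57754688-57754987, minus strand, RefSeq GRCm38.p6). Its capitals mark the 50 bases after the start, and the 250 bases before it are in lower case.
Col8a1 start: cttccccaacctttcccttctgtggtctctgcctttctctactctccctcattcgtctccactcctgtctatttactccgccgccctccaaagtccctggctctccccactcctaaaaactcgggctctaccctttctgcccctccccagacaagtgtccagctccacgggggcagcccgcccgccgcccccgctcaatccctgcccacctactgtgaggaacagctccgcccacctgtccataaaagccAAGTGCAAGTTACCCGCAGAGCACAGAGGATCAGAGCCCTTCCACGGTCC
The windows were searched on both strands for a pair of motifs that GATA factors are known to bind, and a window can hold both. The motif AGATAA stood in 11.2% of all 32851 windows of this length in the RefSeq table and, among 34 collagen genes with a window (37 windows in all), in that of Col11a2. The other motif, TGATAA, stood in 9.05% of all windows and, among the collagens, in that of Col28a1. Either motif was present in 18.6% of all windows, and the window printed above held neither. These counts describe letters in 300 bases only.

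Among the beaded filament chains, Col6a5 rose, and the 3 chains of the common collagen VI trimer did not pass. Col6a4, Col6a5 and Col6a6 encode chains that can take the place of the alpha 3 chain, and the 3 genes lie beside each other on chromosome 9. Col6a5 read 199 and 205 in Gata6cKO RNA, against 149 and 116 in control RNA. Both Gata6cKO samples were above both control samples. The log2 ratio was 0.62 ± 0.12 (n = 2 arrays; 95% interval 0.36 to 0.89; limma adjusted p = 0.00898), with 0.42 in the male pair and 0.83 in the female pair, a 1.54-fold higher level. The call was lost in 3 of 10 alternatives: median centring (adjusted p = 0.361), no filter on dim probes (adjusted p = 0.0882) and separate channels (adjusted p = 0.0549). With the authors' processed signals its log2 ratio was 1.20. A further Col6a5 probe had 0 of 4 spots well above background in every channel, so the result rests on 1 dim probe, with 3 of 4 spots above background in the female control RNA.

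Col6a4 read 199 and 230 in Gata6cKO RNA, against 166 and 148 in control RNA. Its groups did not overlap either, but its log2 ratio of 0.45 ± 0.12 (0.26 and 0.64 in the male and the female pair) did not pass (limma adjusted p = 0.0564). It did pass in 5 of the alternatives, at log2 ratios of up to 0.77. The other Col6a4 probe had 0 of 4 spots well above background in every channel, so Col6a4 too rests on 1 dim probe. Col6a6 read 460 and 554 in Gata6cKO RNA, against 421 and 480 in control RNA, which overlap. Its log2 ratio was 0.17 ± 0.11, and a further probe gave 0.42 in the male pair and −0.20 in the female pair.

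Col6a1, Col6a2 and Col6a3 encode the chains of the collagen VI found in most connective tissue. Col6a1 read 49531 and 56900 in Gata6cKO RNA, against 51626 and 59605 in control RNA. Its log2 ratio was −0.06 in the male pair and −0.07 in the female pair, the smallest gap between the arrays of any collagen. Col6a2 read 9085 and 9837 in Gata6cKO RNA, against 7604 and 10936 in control RNA, with log2 ratios of 0.26 and −0.15. Col6a3 read 32787 and 41800 in Gata6cKO RNA, against 39123 and 34913 in control RNA, with log2 ratios of −0.25 and 0.26. Col6a2 and Col6a3 thus had opposite signs on the 2 arrays, and their groups overlapped.

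Col26a1, which encodes a collagen with short triple helices that was first described in testis and ovary and is put in no class here, also rose. It read 42473 and 47238 in Gata6cKO RNA, against 30951 and 31119 in control RNA. The control samples lay close together and the Gata6cKO samples above them. The log2 ratio was 0.53 ± 0.11 (n = 2 arrays; 95% interval 0.29 to 0.77; limma adjusted p = 0.0133), with 0.46 in the male pair and 0.60 in the female pair, a 1.44-fold higher level. A second probe gave 0.49 and 0.61, but the probes (chr5:137217629-137217688 and chr5:137217634-137217693, mm9, minus strand) share 55 of 60 bases and are not separate measurements of the transcript. The call was lost with median centring, where the log2 ratio was 0.47 (adjusted p = 0.999994), and with no filter on dim probes (adjusted p = 0.0547). Col28a1, the other collagen put in no class, was not well above background.

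**Figure D2:**
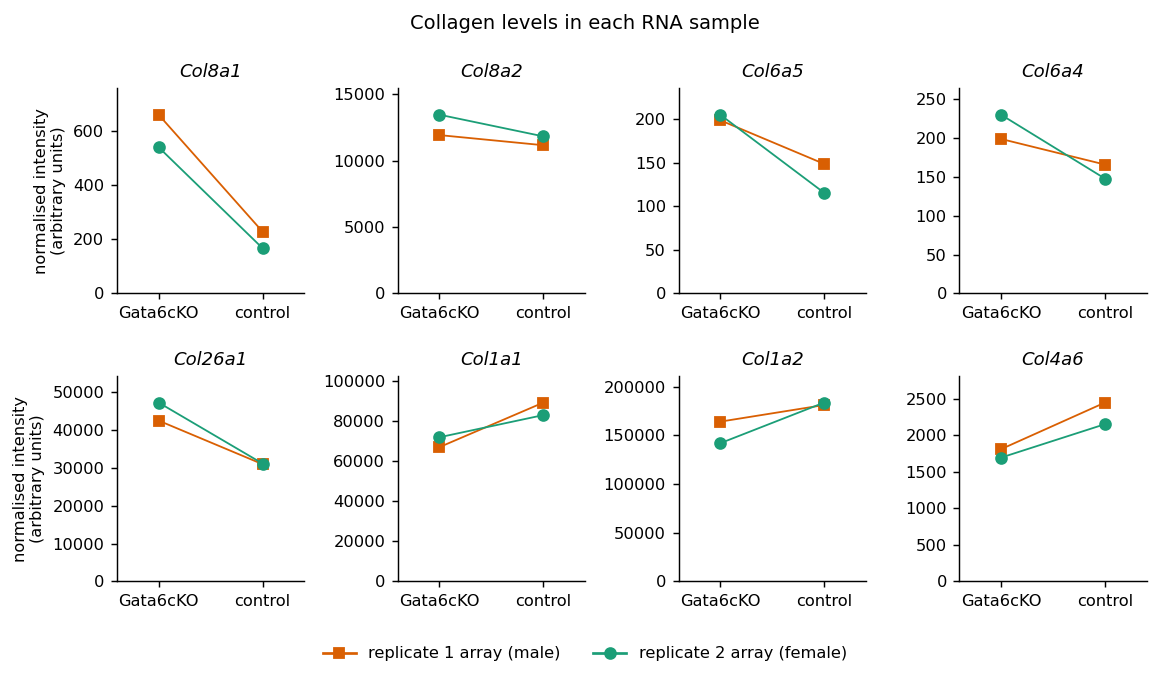
Normalised intensity (y axis, arbitrary units, from 0) of 8 collagen genes in the Gata6cKO and control RNA of each pair, squares for the male and circles for the female array, with a line joining the RNAs of 1 array. The Gata6cKO points of Col8a1 (660 and 540) lie above its control points (228 and 167), and those of Col1a1 (67011 and 71949) lie below its control points (89275 and 83028).

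None of the 11 fibrillar collagens passed limma, and their median log2 ratio was −0.11, with −0.14 in the male pair and −0.04 in the female pair. The ratios ran between −0.32 for Col5a3 and 0.13 for Col27a1. Collagen I, the main fibril collagen of connective tissue, is a trimer of Col1a1 and Col1a2 chains. Col1a1 read 67011 and 71949 in Gata6cKO RNA, against 89275 and 83028 in control RNA. Col1a2 read 164047 and 141865 in Gata6cKO RNA, against 181143 and 183655 in control RNA. For both genes the 2 Gata6cKO samples were the lower ones. For Col1a1 the log2 ratio was −0.31 ± 0.11, and limma gave an adjusted p of 0.214. For Col1a2 it was −0.26 ± 0.11, and the adjusted p was 0.395. The difference between the chains changed sign, with a Col1a1 minus Col1a2 log2 ratio of −0.27 in the male pair and 0.17 in the female pair.

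Col3a1, whose product joins collagen I in the fibrils of hollow organs and vessels, read 89197 and 97332 in Gata6cKO RNA, against 107094 and 100579 in control RNA. The Gata6cKO samples were again the lower ones, with log2 ratios of −0.26 and −0.05. Col24a1, a fibrillar collagen known from developing bone and cornea, read 1432 and 1205 in Gata6cKO RNA, against 1611 and 1631 in control RNA. Its log2 ratio was −0.30 ± 0.12 (limma adjusted p = 0.251), with both Gata6cKO samples below both control samples.

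Collagen V starts and limits the growth of collagen I fibrils. Col5a1 had log2 ratios of −0.13 and −0.04 in the male and the female pair. Col5a2 read 10139 and 9564 in Gata6cKO RNA, against 11003 and 9420 in control RNA, and its groups overlapped. Col5a3 read 2203 and 2291 in Gata6cKO RNA, against 3439 and 2273 in control RNA. Its low mean ratio thus came from the male pair, at −0.64, beside 0.01 in the female pair.

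Col2a1, Col11a1 and Col11a2 encode chains of the fibrils of cartilage, and Col11a1 is also made in other connective tissue. Col2a1 read 4857 and 5521 in Gata6cKO RNA, against 4388 and 6516 in control RNA. The control samples lay on either side of the Gata6cKO ones. Col11a1 had log2 ratios of −0.22 and −0.00236, Col11a2 of 0.04 and 0.16 and Col27a1 of 0.23 and 0.03.

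The basement membrane collagens did not pass either, and their median log2 ratio was −0.09 over the 5 tested genes of 6 on the array. Collagen IV trimers are built from Col4a1 with Col4a2 in nearly all basement membranes, from Col4a3, Col4a4 and Col4a5 in that of the kidney filter, and from Col4a5 with Col4a6 below some epithelia and around smooth muscle. With 1 probe for each gene, Col4a6 had the lowest ratio of all collagens. Its probe read 1810 and 1694 in Gata6cKO RNA, against 2448 and 2153 in control RNA. Both Gata6cKO samples were below both control samples, and the log2 ratio was −0.39 ± 0.11 (n = 2 arrays; 95% interval −0.63 to −0.15), which did not pass (limma adjusted p = 0.0705). A further Col4a6 probe on the X chromosome, at chrX:137601433-137601491 (mm9), read 276 and 275 in Gata6cKO RNA, against 284 and 287 in control RNA. Its log2 ratios were −0.04 and −0.06, nearer to 0 than those of the probe above, at chrX:137599990-137600049. With the mean of both probes the log2 ratio of Col4a6 was −0.22 (limma adjusted p = 0.409), and Col5a3, Col1a1, Col24a1 and Col1a2 lay lower. The exon, intron or UTR position of the 2 probes was not settled here.

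Col4a5, which lies beside Col4a6 on the X chromosome, read 3446 and 3410 in Gata6cKO RNA, against 4317 and 3068 in control RNA. Its log2 ratios of −0.32 and 0.15 had opposite signs. Col4a1 read 17398 and 16139 in Gata6cKO RNA, against 13733 and 17354 in control RNA, with log2 ratios of 0.34 and −0.10. Col4a2 read 8401 and 9247 in Gata6cKO RNA, against 6775 and 8895 in control RNA, with log2 ratios of 0.31 and 0.06. The log2 ratio of Col4a1 minus that of Col4a2 was 0.03 in the male pair and −0.16 in the female pair. Col4a4 read 198 and 189 in Gata6cKO RNA, against 207 and 214 in control RNA, and Col4a3 was not well above background in any channel.

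Col4a1 and Col4a2 lie head to head and are read in opposite directions from a shared start region. The window of Col4a2 (chr8:11312555-11312854, plus strand, RefSeq GRCm38.p6) is given to show that region. Its capitals mark the 78 bases that also belong to the window of Col4a1 on the other strand.
Col4a2 start: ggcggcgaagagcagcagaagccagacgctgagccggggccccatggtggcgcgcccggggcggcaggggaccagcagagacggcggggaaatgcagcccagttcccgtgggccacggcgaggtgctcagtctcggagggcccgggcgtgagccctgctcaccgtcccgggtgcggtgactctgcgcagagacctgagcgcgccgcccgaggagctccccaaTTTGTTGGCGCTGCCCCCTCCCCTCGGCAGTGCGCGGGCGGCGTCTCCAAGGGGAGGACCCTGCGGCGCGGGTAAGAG
This window held neither of the GATA motifs searched.

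None of the 8 tested FACIT collagens passed, and their median log2 ratio was −0.07, with −0.17 in the male pair and 0.00344 in the female pair. Col12a1 and Col14a1 encode chains that lie on collagen I fibrils in dense connective tissue. Col12a1 read 5526 and 6671 in Gata6cKO RNA, against 6487 and 6486 in control RNA. Col14a1 read 28783 and 34206 in Gata6cKO RNA, against 33396 and 31750 in control RNA. In both genes the male Gata6cKO sample was the lowest and the female one the highest of the 4.

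Col16a1, whose product is known from skin and from smooth muscle, read 47019 and 64691 in Gata6cKO RNA, against 58355 and 55366 in control RNA. Its log2 ratios were −0.31 and 0.22. Its further kept probes gave 0.23 and 0.16, and −0.08 and 0.06, so its probes differed in sign as well. The probe with 0.23 and 0.16 was dim, at 202 and 245 in Gata6cKO RNA, against 172 and 219 in control RNA. The mean log2 ratios of the other Col16a1 probes were −0.04 and −0.00776. Collagen IX decorates the fibrils of cartilage, and its 3 chain genes had mean log2 ratios of −0.08 (Col9a1), −0.19 (Col9a2) and −0.15 (Col9a3). Col9a1 read 19552 and 19336 in Gata6cKO RNA, against 18599 and 22675 in control RNA, and its arrays had opposite signs. Col20a1 had log2 ratios of 0.08 and 0.22. Col22a1, known from tissue junctions such as that of muscle and tendon, read 724 and 705 in Gata6cKO RNA, against 564 and 721 in control RNA. Col19a1 was not well above background.

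Of the remaining classes, the multiplexins Col15a1 and Col18a1 encode collagens of basement membrane zones. Col18a1, whose C-terminal fragment is endostatin, read 36611 and 37199 in Gata6cKO RNA, against 33650 and 32879 in control RNA. The 2 Gata6cKO samples were the higher ones, but the log2 ratio of 0.15 ± 0.11 did not pass (limma adjusted p = 0.937). A further Col18a1 probe gave 0.12 and −0.03. Col15a1 read 269 and 260 in Gata6cKO RNA, against 229 and 384 in control RNA. The female control sample stood above the other three, and the log2 ratios were 0.24 and −0.56. A second Col15a1 probe that overlaps the first gave 0.11 and −0.61, and another, elsewhere in the gene, gave −0.21 and −0.14. Col7a1, the anchoring fibril collagen below stratified epithelia, read 1913 and 2368 in Gata6cKO RNA, against 2069 and 2338 in control RNA, with log2 ratios of −0.11 and 0.02.

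The transmembrane collagens gave the largest gap between the arrays. Col25a1 encodes a collagen of the cell surface that is known from neurons and, in mice, is needed in muscle for its innervation. Its first probe read 531 and 1378 in Gata6cKO RNA, against 1121 and 813 in control RNA. The Gata6cKO RNA was thus the lowest of the 4 samples in males and the highest in females, with log2 ratios of −1.08 and 0.76. Only 4 of 19801 genes (0.0202%) had a larger gap between the arrays. The other 3 kept Col25a1 probes lie 384813 to 415954 bases further along chromosome 3. The exon, intron or UTR position of the first probe was not settled here. Their log2 ratios in the male and the female pair were −0.06 and −0.01, 0.26 and 0.48, and 0.39 and 0.39. The 3 further probes thus kept 1 sign on both arrays, unlike the first, and none passed (limma adjusted p over all probes from 0.0537 for the probe with the highest mean).

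Col23a1 read 5592 and 6420 in Gata6cKO RNA, against 4478 and 6295 in control RNA, with log2 ratios of 0.32 and 0.03. Col13a1, known from the neuromuscular junction, read 119 and 138 in Gata6cKO RNA, against 110 and 156 in control RNA. It had 2 of 4 spots well above background in each channel of the male array and 4 of 4 in each channel of the female array, and was therefore not tested.

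**Figure D3:**
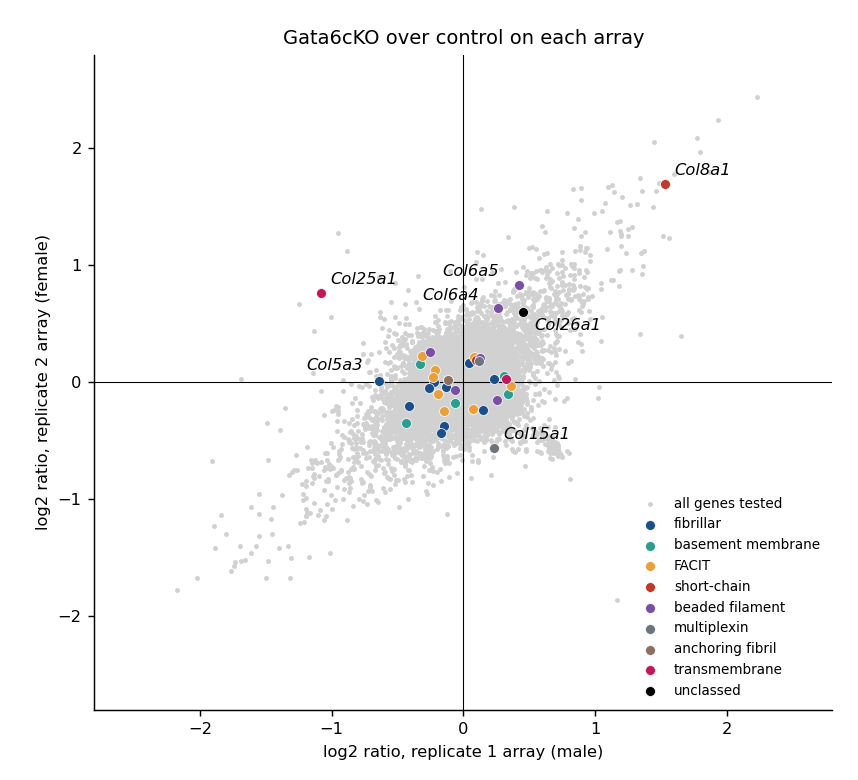
Log2 ratio of Gata6cKO over control on the replicate 1 (male) array (x axis) against that on the replicate 2 (female) array (y axis), grey for all 19801 genes and coloured by class for the collagens. Col8a1 lies far out at 1.53 and 1.69, Col25a1 lies in the upper left at −1.08 and 0.76, and most collagens lie within the grey cloud around 0.

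Among the 13 collagen genes with more than 1 kept probe, the mean log2 ratios of the probes had opposite signs in 3: Col6a2, Col16a1 and Col25a1. In Col6a2 they lay close to 0, at −0.00538 and 0.05. In Col25a1 they ran between −0.16 and 0.39. The probes of Col26a1, at 0.53 and 0.55, were the only such set of a gene that passed. The share of genes with opposite probes over the whole array is not given here.

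**Figure D4:**
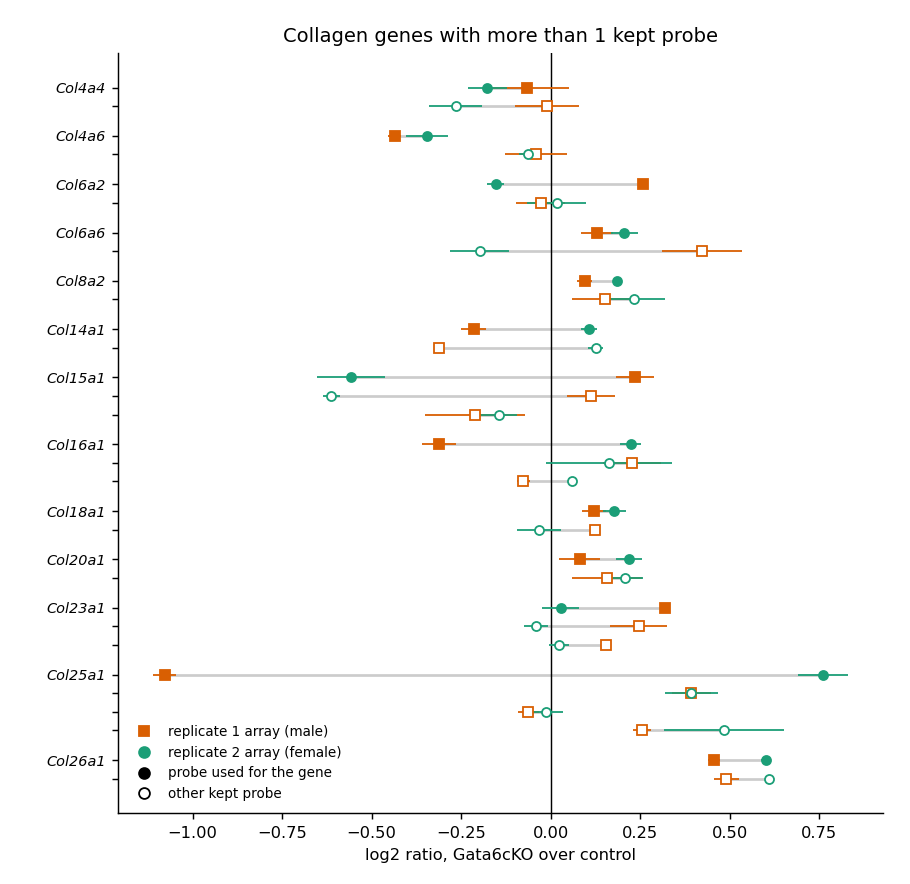
Log2 ratio of Gata6cKO over control (x axis) of each kept probe of the 13 collagen genes with more than 1, squares for the male and circles for the female array, filled for the probe that stands for the gene and open for the others, with thin lines for the SD over the spots of a probe. The Col26a1 probes lie between 0.46 and 0.61, whereas the first Col25a1 probe spans −1.08 to 0.76 and the others lie between −0.06 and 0.48.

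Genes that act on collagen were read from 5 lists, which were chosen with earlier results of these data known. Over all tested genes, 2.20% were higher and 2.35% lower. The list of modification and folding holds the enzymes that hydroxylate and glycosylate chains and the chaperones that fold and export them. None of its 20 genes passed in either direction, and its median log2 ratio was −0.02, with members between −0.17 and 0.19. Sparc, a collagen-binding protein on that list, read 170400 and 129619 in Gata6cKO RNA, against 153144 and 183384 in control RNA, and its groups overlapped. The list of procollagen cleavage and cross-linking, with the proteinases that trim the ends of chains and the lysyl oxidases, had 12 tested genes, none of which passed. Its median was 0.04 and its range −0.33 (Loxl2) to 0.31 (Loxl4), and Tll2 was not well above background. Its member Pcolce, which enhances cleavage at the C-terminal end, read 63044 and 70812 in Gata6cKO RNA, against 80678 and 68440 in control RNA.

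Of 9 tested collagen receptors, 1 rose and none fell, and Gp6 was not well above background. That gene was Itga11, the alpha 11 integrin of fibroblasts that binds collagen I. It read 1165 and 1115 in Gata6cKO RNA, against 866 and 660 in control RNA. Both Gata6cKO samples were above both control samples, at a log2 ratio of 0.59 ± 0.12 (n = 2 arrays; limma adjusted p = 0.00987), a 1.51-fold higher level. The call was lost with median centring (adjusted p = 0.665), with no filter on dim probes (adjusted p = 0.0744) and with separate channels (adjusted p = 0.0823). The other receptors, among them both discoidin domain receptors and the integrin beta 1 chain, had log2 ratios from −0.05 to 0.16.

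Of 14 partners of collagen IV in basement membranes, 2 fell and none rose. These were Lama3 and Lamb3, which encode laminin chains found below epithelia. Lamb3 read 1079 and 998 in Gata6cKO RNA, against 2803 and 1950 in control RNA. It fell by 1.17 on the log2 scale (SE 0.12, n = 2 arrays; limma adjusted p = 8.71e-05) and passed in all 10 alternatives. Lama3 read 434 and 379 in Gata6cKO RNA, against 632 and 582 in control RNA. It fell by 0.58 (SE 0.11; limma adjusted p = 0.00661), which was lost with median centring (adjusted p = 0.680). In both genes the 2 Gata6cKO samples were below both control samples. The other laminins on the list, the nidogens, perlecan (Hspg2), agrin (Agrn) and peroxidasin (Pxdn) did not pass, at log2 ratios between −0.23 and 0.21.

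The list of collagen degradation had 6 tested genes, none of which passed, and Mmp8, Mmp9 and Mmp13 were not well above background. Its member Timp2, an inhibitor of metalloproteinases, read 62012 and 50234 in Gata6cKO RNA, against 71819 and 66695 in control RNA, at a log2 ratio of −0.31 ± 0.11 (limma adjusted p = 0.211).

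**Figure D5:**
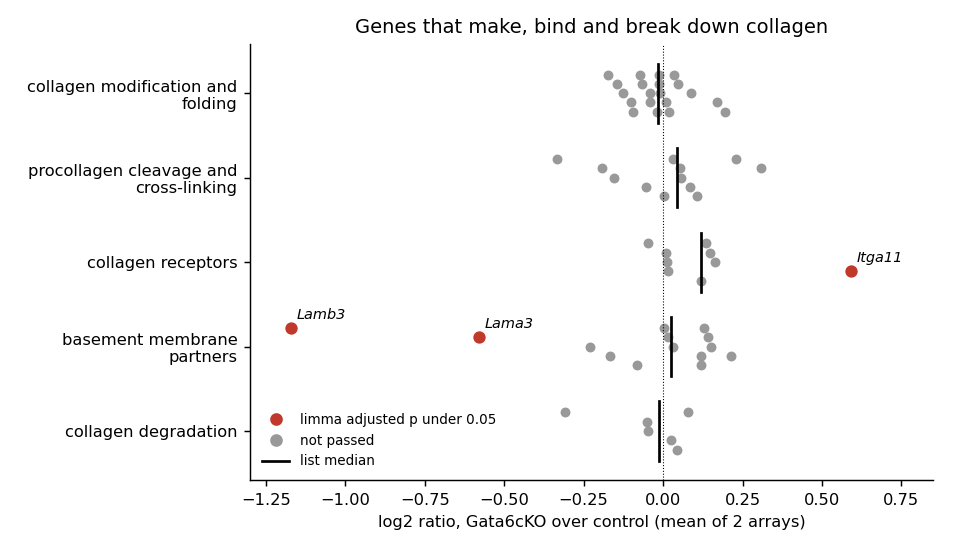
Mean log2 ratio of Gata6cKO over control (x axis) of each tested gene on 5 lists of genes that make, bind or break down collagen, red where the limma adjusted p is under 0.05 and grey otherwise, with a bar for the median of each list. Itga11 stands apart at 0.59, and Lamb3 and Lama3 at −1.17 and −0.58, while the modification and folding list stays between −0.17 and 0.19.

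Markers of the cell types in the dissected tissue also differed between the groups. The counts of these lists stand beside 2.20% of all tested genes higher and 2.35% lower. Fewer cells of a type and less RNA per cell cannot be told apart in whole-tissue RNA. Each sum of a list below adds the intensities of different probes, is led by its brightest ones and is no measure of how its other members moved. Beside Lama3 and Lamb3, which fell, and Col4a6, which did not pass, 8 of 15 urothelial markers fell and none rose. The list had a summed normalised intensity of 210544 and 191531 in Gata6cKO RNA, against 273649 and 258016 in control RNA. The median log2 ratio of the list was −0.57, and Krt18, which did not pass, made up 33.0% to 45.4% of the sum. Beside the collagens that rose, 9 of 10 tested markers of neurons and glia rose and none fell. Their sum was 29385 and 28323 in Gata6cKO RNA, against 15697 and 12536 in control RNA. The median log2 ratio of the list was 1.20. Of 7 tested markers of skeletal muscle, 4 rose, with a sum of 7152 and 4288 in Gata6cKO RNA, against 4262 and 2819 in control RNA, and Ckm was not well above background. The part of these lists in the collagen results was not tested.

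Of 7 tested markers of nephron and kidney stroma, 3 rose, with a sum of 26966 and 23396 in Gata6cKO RNA, against 19695 and 18573 in control RNA, and Nphs1 and Umod were not well above background. Beside the fibrillar collagens, 4 of 8 fibroblast markers fell and 1 rose, with a sum of 295816 and 290509 in Gata6cKO RNA, against 410919 and 371628 in control RNA. Of 10 markers of ureter mesenchyme and smooth muscle, 4 fell, with a sum of 75809 and 75244 in Gata6cKO RNA, against 77617 and 77835 in control RNA. Bmp4, which did not pass, made up 44.0% to 65.8% of that sum with levels of 43662 and 49538 in Gata6cKO RNA, against 34143 and 42756 in control RNA. The markers that fell were Cnn1, Myocd, Actg2 and Myh11, at log2 ratios of −1.51, −1.33, −1.09 and −0.81, and the median of the list was −0.27. Beside the collagens of cartilage, 2 of 6 tested cartilage markers fell, with a sum of 8178 and 8007 in Gata6cKO RNA, against 9199 and 9989 in control RNA, and Matn1, Matn3, Comp and Ucma were not well above background. Of the bone list 4 genes were tested and none passed, and Runx2, Spp1 and Dmp1 were not well above background. The part of these lists in the collagen results was not tested either.

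Of 5 tested mesothelial markers, 3 fell and 1 rose, with a sum of 36975 and 34294 in Gata6cKO RNA, against 52361 and 46046 in control RNA, and Lrrn4 was not well above background. Of those that fell, Krt19 and Upk3b also stand on the urothelial list, and Krt19 made up 60.5% to 81.4% of the sum. Erythroid markers fell in 3 of 7 cases, with a sum of 209678 and 172720 in Gata6cKO RNA, against 256029 and 248788 in control RNA. Hba-a1, which did not pass, made up 90.9% to 92.8% of that sum. Of 7 endothelial markers 1 fell, and of 6 macrophage markers none passed. Whether any of these bears on the collagens was not tested.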

How the data were processed

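The deposited scanner files hold a raw mean intensity and a local background for each spot and dye (per the file headers). They also hold a processed intensity and its log10 ratio, made by the authors with Agilent Feature Extraction; the submitters' processing notes name version 10.7.3.1. The deposited series values are a score per probe: a linear fold with a sign, Gata6cKO over control, whose direction was read from a Pearson r of 0.985 and 0.980 with the processed log2 ratios, across probes. Both column medians are 1; how spots were summarised is not given in the sources used here.

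Raw intensities were corrected with normexp (offset 50) and normalised by loess within each array in limma 3.58.1 (R 4.3.3), with control and outlier spots at weight 0 and the ratio of the array with exchanged dyes turned round. Probes with at least 3 of 4 spots well above background in 1 genotype on both arrays were kept (26200 probes). Each gene was represented by its brightest kept probe. Symbols were updated from a RefSeq table (28328 probes matched by accession, 1602 symbols changed). No spot was saturated. lmFit and eBayes had 1 residual and 11.9 prior degrees of freedom (prior SD 0.162), and Benjamini-Hochberg adjustment ran over 19801 genes. Only the limma fit was tested on simulated data, whose spread was drawn from the prior of that same fit.

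All collagens are named. Those that passed, or had opposite probes or arrays, have their level in every channel, as has 1 gene of each class; of the 5 lists, the genes that passed are named, or 1 gene where none did. Collagen genes as the subject, their rule and the lists were chosen with earlier results of these data known, so their counts are not independent of those results. Some listed genes are not reported here and were left out of the list counts. Alternatives were median centring, the processed signals, offset 16, no or a stricter filter, the mean of a gene's probes, every probe, an intensity trend, separate channels, the deposited values and leaving out each array. There were 0 unused per-sample columns.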

Additional observations from a re-analysis of the deposited data

Results flagged for a closer look

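For 4 collagens the male and the female array lay on opposite sides of 0, each by more than the prior SD of 0.162. Each gives the log2 ratio of the male array minus that of the female array. The difference was not tested, since each sex has 1 array, and sex cannot be told apart from dye orientation or replicate. The gap was −1.84 for Col25a1 (−1.08 in males and 0.76 in females), whose 3 further probes had gaps with no change of sign. It was 0.79 for Col15a1 (0.24 and −0.56), where an overlapping probe gave 0.11 and −0.61. It was −0.54 for Col16a1 (−0.31 and 0.22) and −0.51 for Col6a3 (−0.25 and 0.26). A larger gap was found in 0.0202% of all genes for Col25a1, 1.07% for Col15a1, 4.03% for Col16a1 and 4.70% for Col6a3. The share of all genes that meet the rule of these flags is not given here. Opposite signs of any size were found in 39.5% of the collagens and in 51.2% of all genes.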

How the results depend on the processing

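Each array is its own pair of Gata6cKO and control RNA, so the main fit on the ratios is already paired, with 1 residual degree of freedom. With 1 array left out no test remains. The count of collagens called lower was 0 in all 10 alternatives. The count called higher was 1 (Col8a1) with median centring and with no filter on dim probes, 2 (Col8a1 and Col26a1) with separate channels, 3 with both channels above background and with the mean of a gene's probes, and 4, Col6a4 included, with the other 5. The adjusted p of Col6a4 was 0.00478 with the processed signals, 0.00730 with offset 16, 0.0419 with every probe, 0.00363 with an intensity trend and 7.04e-05 with the deposited values. Over all genes, 100 were lower and 90 higher with median centring, 229 and 248 with no filter, 267 and 275 with separate channels, and 795 and 672 with the deposited values. The log2 ratio of Col6a5 was 1.20 with the processed signals and 1.18 with the deposited values. The median of the collagens lay between −0.0623 and 0.0201 with 1 array left out. Among collagens that did not pass, the sign turned with median centring for Col6a2 (−0.00217) and Col6a3 (−0.0606), with the deposited values for Col6a3 (−0.0193), and with the mean of probes for Col16a1 (0.0481) and Col25a1 (0.14). Their main log2 ratios were 0.05, 0.00243, −0.04 and −0.16. With the mean of probes Col4a6 moved to −0.22, beside −0.39 in the main setting. The cause of these moves was not tested. Signal over background limits Col6a5, Col6a4 and the 5 untested genes. Col8a1 also rests on 1 probe, at 228 and 167 in control RNA. Its log2 ratio was 1.61 in the main setting, 1.81 with offset 16 and 2.12 with the processed signals.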
